A study of Mus musculus with 6 samples.

Results

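The EGF receptor ligands Areg, Ereg, Hbegf, Tgfa, Btc and Epgn, the ERBB3 ligand Nrg1 and the receptor genes Egfr, Erbb2 and Erbb3 were described in mouse colitis-associated tumors. These 10 genes were taken by their symbols from the 54532 genes of the deposited table, and all 10 were found there. RNA-seq had been performed on polyA RNA of 3 tumor samples from Tmem173 fl/fl mice and 3 from Tmem173 iΔmye mice. Tmem173 encodes STING, a sensor of cytosolic nucleic acid signals, and its alleles were flanked by loxP sites in both groups. Tmem173 iΔmye mice also carried Lyz2-CreERT2, a Cre driven by the Lyz2 promoter in myeloid cells and active only after tamoxifen (TAM). The design was meant to delete STING in the myeloid lineage and to leave it in epithelium and stroma. Tmem173 fl/fl mice had no Cre. Mice of both groups, all on the C57BL/6N background, received azoxymethane (AOM), a colon carcinogen, with 3 cycles of dextran sodium sulfate (DSS), which injures the colon epithelium. Both groups then received TAM at 120 mg/kg in 5 injections, so that the deletion would come after tumors had formed. The methods give no age for these groups, and an age of 5 to 6 weeks at AOM injection for other groups of the study, in which TAM was given before the inflammation. The titles number the samples and do not say more about which mouse each came from, so the p-values below measure the spread between these samples.

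The ligands are made as membrane-anchored precursors that metalloproteases cut to release a soluble growth factor. Areg, Ereg, Hbegf, Tgfa, Btc and Epgn bind EGFR, Hbegf, Btc and Ereg bind ERBB4 as well, and Nrg1 binds ERBB3 and ERBB4. ERBB2 has no known ligand of its own and works as the preferred partner of the other receptors, whereas ERBB3 has a weak kinase and couples its partners to PI3K. In the colon these ligands drive proliferation and wound repair of the epithelium, and both epithelial and immune cells can make them. The 7 ligand and 3 receptor genes are given in that order of roles.

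Tmem173 itself, on the minus strand of chromosome 18 from 35733678 to 35740554, had 1748, 2911 and 1705 counts in Tmem173 fl/fl tumors 1, 2 and 3 and 2291, 2245 and 1953 counts in Tmem173 iΔmye tumors 1, 2 and 3. Its level in whole tumor RNA therefore did not tell the groups apart, and the deletion itself was not visible in these samples. The libraries held similar numbers of reads counted on genes, from 15329810 to 16533732. Some libraries stood apart in markers of other cells. Tmem173 iΔmye tumor 1 had a summed FPKM of 481 for 6 neutrophil markers, against 40.4 to 148 in the other tumors. Tmem173 iΔmye tumor 3 had 863 for 7 mast cell markers, against 28.1 to 224. Tmem173 fl/fl tumor 2 had 204 for 10 markers of stratified squamous epithelium, a tissue that the colon lacks, against 55.6 to 94.5, and its Krt5 level was 38.1 FPKM, against at most 3.55. Epithelial markers were plentiful in every tumor, with a summed FPKM of 6210 to 8137 for 10 genes. Y-linked reads were present in 3 tumors, namely Tmem173 fl/fl 1, Tmem173 iΔmye 1 and Tmem173 iΔmye 2, so the sex of the mice was not balanced between the groups.

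Areg and the receptors Erbb3 and Erbb2 were the most abundant members in these tumors by FPKM. FPKM divides counts by gene length so that levels of different genes can be set side by side, as far as the annotated lengths hold. The mean over all 6 tumors was 41.1 FPKM for Areg, 38.3 for Erbb3 and 30.2 for Erbb2. Tgfa followed at 15.4, Hbegf at 12.5, Egfr at 7.73, Btc at 6.70, Ereg at 6.22, Nrg1 at 2.50 and Epgn at 0.296 FPKM. Receptor mRNA was thus mostly Erbb3 and Erbb2, and Egfr was lower than both in every tumor. Neighbours in this order could not always be separated. Areg lay above Erbb3 in 3 of 6 tumors, and Btc lay above Ereg in 3 of 6. Tgfa lay above Hbegf, Egfr above Btc and Ereg above Nrg1 in 5 of 6 tumors, and the other neighbouring pairs kept their order in 6 of 6.

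The ligands differed widely in how stable they were from tumor to tumor. Ereg had the widest range, from 1.92 to 9.56 FPKM, which is 4.98-fold, and Areg spanned 3.75-fold. Btc stayed between 5.80 and 7.66 FPKM, a 1.32-fold range, and the receptors Egfr and Erbb2 spanned 1.35-fold and 1.42-fold. The coefficient of variation over the 6 tumors was 53.3% for Ereg and 52.0% for Areg, against 9.09% for Btc and 10.6% for Egfr.

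**Figure D1:**
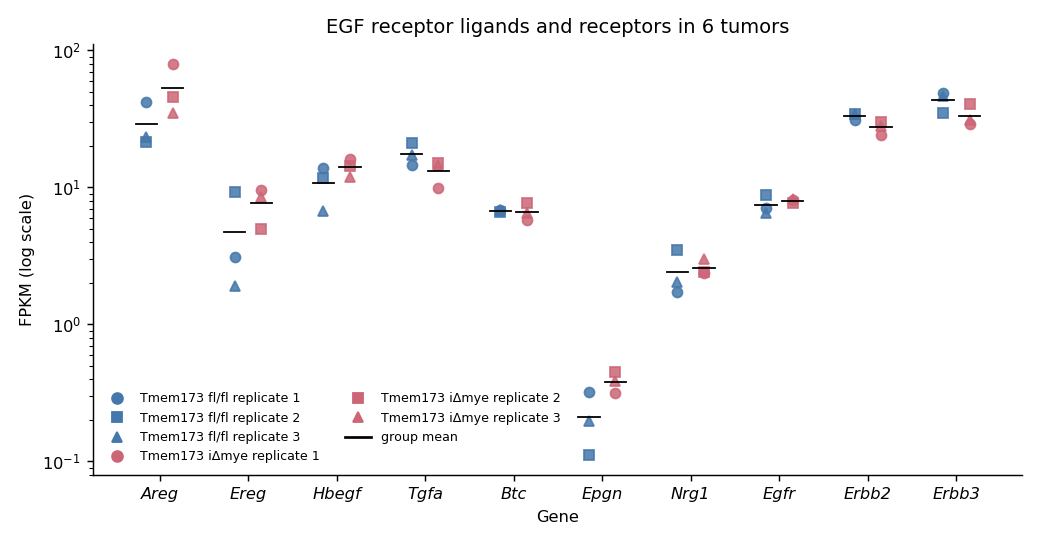
Level of each of the 10 genes in every tumor, as FPKM on a log scale. Each point is 1 tumor, with blue for Tmem173 fl/fl, red for Tmem173 iΔmye and a different shape for each replicate number, and bars are group means. Areg ranged from 21.3 to 80.0 FPKM, Btc from 5.80 to 7.66, and Erbb2 was the gene whose groups did not overlap.

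No member passed an adjusted p-value of 0.05 in the comparison of Tmem173 iΔmye with Tmem173 fl/fl tumors, and neither did any of the 16426 genes tested with edgeR's quasi-likelihood test (0% of genes, against 6.14% at an unadjusted p of at most 0.05). DESeq2 called 28 genes at that adjusted limit, none of them a member. The genes tested had a mean of at least 0.5 FPKM, which 9 of the 10 members reached. Epgn did not, and its values come from a fit of all 30939 genes with any count. The limits that the study's methods use, a log2 fold change of 1 or more in size with an unadjusted p of at most 0.05, were passed by 2.12% of genes and by 0 members. At an unadjusted p of at most 0.05 alone, 3.23% of genes were higher and 2.9% lower in Tmem173 iΔmye tumors, and the member among them was Areg, on the higher side. Of the 9 members tested, 5 had a log2 fold change above 0, against 49.4% of all genes. The groups did not overlap for 12.5% of genes, 6.03% with Tmem173 iΔmye higher and 6.47% with it lower, and for 1 of the 9 members, Erbb2, which was lower. A bulk measurement cannot tell fewer cells of a type from less RNA per cell, and this holds for every difference below.

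**Figure D2:**
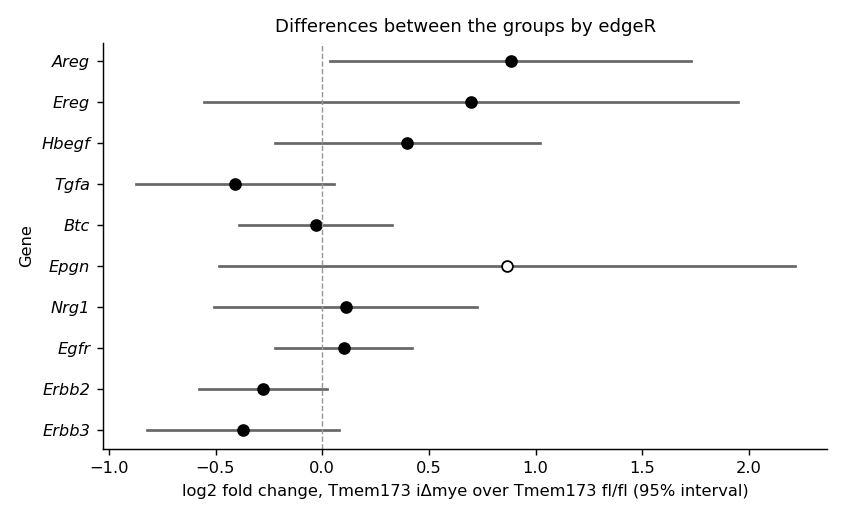
Log2 fold change of each gene, Tmem173 iΔmye over Tmem173 fl/fl, by edgeR on the counts of 3 tumors per group. Points are estimates, lines are 95% intervals, the dashed line marks no difference, and the open point is Epgn, from the fit without the filter on low values. The interval of Areg, from 0.039 to 1.73, was the one that lay wholly on one side of 0.

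Areg, which encodes amphiregulin, lies on the plus strand of chromosome 5 from 91139599 to 91148432. Its level was 41.6, 21.3 and 23.4 FPKM in Tmem173 fl/fl tumors 1, 2 and 3 and 80.0, 45.3 and 34.7 FPKM in Tmem173 iΔmye tumors 1, 2 and 3. The groups overlapped because Tmem173 fl/fl tumor 1 was above Tmem173 iΔmye tumor 3, and the highest value by far was that of Tmem173 iΔmye tumor 1, the library rich in neutrophil markers. The means were 28.8 ± 11.2 (SD, n = 3) and 53.3 ± 23.7 FPKM (SD, n = 3), a ratio of 1.85. The log2 fold change was 0.88 (SE 0.36, 95% interval 0.039 to 1.73, unadjusted p = 0.0425, Benjamini-Hochberg adjusted p = 0.742 from edgeR). Without Tmem173 iΔmye tumor 1 it was 0.47 (unadjusted p = 0.180 from edgeR), and without Tmem173 fl/fl tumor 1 it was 1.25 (unadjusted p = 0.00944 from edgeR). It was 0.70 without Tmem173 fl/fl tumor 2 (unadjusted p = 0.135 from edgeR) and 0.76 without Tmem173 fl/fl tumor 3 (unadjusted p = 0.125 from edgeR). Tmem173 fl/fl tumor 1 and Tmem173 iΔmye tumors 1 and 2, the 3 with the most Areg, were those with Y-linked reads, at 41.6 to 80.0 FPKM, against 21.3 to 34.7 in those without. Among tumors with Y-linked reads, every Tmem173 iΔmye tumor had more Areg than the Tmem173 fl/fl tumor. Among those without, the Tmem173 iΔmye tumor had more than both Tmem173 fl/fl tumors. Each set holds only 1 or 2 tumors per group. Hbegf, Erbb2 and Erbb3 also kept the groups apart in both sets, and Ereg, Tgfa, Btc, Epgn, Nrg1 and Egfr in 1 set only. The share of all genes ordered so, or apart between tumors with and without Y-linked reads, was not computed. With Y-linked reads added as a covariate the log2 fold change was 0.60 (unadjusted p = 0.0332, adjusted p = 1 from edgeR).

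The sequence just upstream of the Areg, Tgfa and Erbb2 starts is shown because Areg was the member with an unadjusted p under 0.05, Erbb2 the member without overlap, and Tgfa a ligand whose levels ran opposite to those of Areg across tumors. The bases are those of RefSeq on GRCm38.p6, the build family of the deposited coordinates, and they stop before the start given by RefSeq or by the deposited table, whichever comes first. The RefSeq start lies 1 base before that of the table for Tgfa and inside the gene for Erbb2, of which 236 bases are therefore shown. They are written 5′ to 3′ on the plus strand, which is the strand of all 3 genes. Capitals mark a cAMP response element (TGACGTCA), a GC box (GGGCGG) and a TATA box (TATAAA), each searched on both strands.
Areg, chr5:91139349-91139598: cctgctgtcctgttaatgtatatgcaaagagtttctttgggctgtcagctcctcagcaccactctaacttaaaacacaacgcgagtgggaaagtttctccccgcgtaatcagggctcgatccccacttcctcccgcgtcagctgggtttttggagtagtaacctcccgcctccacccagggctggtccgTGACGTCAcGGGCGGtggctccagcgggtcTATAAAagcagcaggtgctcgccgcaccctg
Tgfa, chr6:86194972-86195221: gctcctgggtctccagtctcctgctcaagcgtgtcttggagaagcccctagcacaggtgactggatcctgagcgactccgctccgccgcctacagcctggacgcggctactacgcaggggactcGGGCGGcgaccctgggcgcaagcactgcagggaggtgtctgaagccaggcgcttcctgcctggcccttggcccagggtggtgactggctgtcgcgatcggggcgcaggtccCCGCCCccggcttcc
Erbb2, chr11:98412234-98412469: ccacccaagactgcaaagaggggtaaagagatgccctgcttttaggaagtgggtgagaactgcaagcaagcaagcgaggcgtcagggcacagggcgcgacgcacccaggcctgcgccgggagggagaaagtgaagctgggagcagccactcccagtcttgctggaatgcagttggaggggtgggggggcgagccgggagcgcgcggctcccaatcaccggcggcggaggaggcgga

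The Areg promoter held a cAMP response element starting 61 bases upstream of the RefSeq start, followed by a GC box at 52 bases and a TATA box at 31 bases. The cAMP response element letters occurred in 1.55% of 32851 mouse promoters searched over the 250 bases before the RefSeq start, the TATA box letters in 12.4% and the GC box letters in 32.7%. Of the 6 members found among the promoters, Areg, Btc, Egfr, Epgn, Erbb2 and Tgfa, only Areg had the cAMP response element. The TATA box letters were in Epgn and Areg, and the GC box letters in Areg, Tgfa and Egfr. Tgfa had GC boxes at 126 and 15 bases and no TATA box, and Erbb2 had none of the 3. The letters of an AP-1 site (TGANTCA, 6.75% of promoters) and of an interferon-stimulated response element (2.98%) were in 0 of the 6. An NF-kB site in its loosest form, whose letters were in 45.8% of promoters, was found in Areg, Btc, Tgfa and Erbb2. These are matches of letters and do not show that a factor was bound.

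Ereg, Epgn and Btc are neighbours of Areg on chromosome 5. From Epgn at 91027464 to the end of Btc at 91402994 the table lists 7 genes, in the order Epgn, Gm19610, Ereg, Areg, Gm23092, Gm19619 and Btc. These ligand genes, though adjacent, were at very different levels. The log2 fold change was 0.88 for Areg, 0.70 for Ereg, 0.86 for Epgn and -0.031 for Btc. Over the 6 tumors, Pearson's r of log2(FPKM + 1) was 0.31 for Areg with Ereg, -0.38 for Areg with Btc and -0.52 for Ereg with Btc. Epgn had too few counts for its pattern to be compared. Ereg, from 91074622 to 91093646 on the plus strand, encodes epiregulin and had 3.12, 9.23 and 1.92 FPKM in Tmem173 fl/fl tumors and 9.56, 4.997 and 8.48 FPKM in Tmem173 iΔmye tumors 1, 2 and 3. Tmem173 fl/fl tumor 2, the library with the highest sum of squamous markers, was as high as the highest Tmem173 iΔmye tumors. The other Tmem173 fl/fl tumors were below all 3 Tmem173 iΔmye tumors. The means were 4.76 ± 3.92 and 7.68 ± 2.39 FPKM (SD, n = 3 each), with a log2 fold change of 0.70 (SE 0.54, 95% interval -0.55 to 1.95, adjusted p = 0.770 from edgeR). Without Tmem173 fl/fl tumor 2 the log2 fold change was 1.60 (unadjusted p = 0.00365, adjusted p = 0.745 from edgeR). It was 0.32 without Tmem173 fl/fl tumor 3 (unadjusted p = 0.521 from edgeR) and 0.47 without Tmem173 fl/fl tumor 1 (unadjusted p = 0.456 from edgeR).

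Btc, from 91357261 to 91402994 on the minus strand, encodes betacellulin. Its level was 6.83, 6.62 and 6.86 FPKM in Tmem173 fl/fl tumors and 5.80, 7.66 and 6.44 FPKM in Tmem173 iΔmye tumors 1, 2 and 3. The means were nearly the same, 6.77 ± 0.128 and 6.63 ± 0.948 FPKM (SD, n = 3 each), and the 95% interval of the log2 fold change ran from -0.39 to 0.33. Epgn, from 91027464 to 91035215 on the plus strand, encodes epigen and was close to undetected, with 9, 3 and 6 counts in Tmem173 fl/fl tumors and 9, 13 and 11 counts in Tmem173 iΔmye tumors. At this depth its log2 fold change of 0.86 had a 95% interval of -0.49 to 2.21, so no difference in Epgn was detectable.

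Hbegf, on the minus strand of chromosome 18 from 36504929 to 36515805, encodes heparin-binding EGF-like growth factor. It had 13.7, 11.7 and 6.76 FPKM in Tmem173 fl/fl tumors and 16.2, 14.4 and 11.9 FPKM in Tmem173 iΔmye tumors 1, 2 and 3. As for Areg, the first tumor of the Tmem173 fl/fl group overlapped the third of the other group. The log2 fold change was 0.40 (SE 0.27, 95% interval -0.22 to 1.02, adjusted p = 0.756 from edgeR). It was 0.16 without Tmem173 fl/fl tumor 3, which had the least Hbegf, and 0.63 without Tmem173 fl/fl tumor 1. Hbegf was the other member that separated tumors with Y-linked reads, at 13.7 to 16.2 FPKM, from those without, at 6.76 to 11.9 FPKM. The share of all genes that do so was not computed, so a link of Hbegf to sex was not tested. Within each of these 2 sets, which hold 1 or 2 tumors per group, Tmem173 iΔmye tumors had more Hbegf than Tmem173 fl/fl tumors. With Y-linked reads as a covariate its log2 fold change was 0.26 (unadjusted p = 0.306 from edgeR).

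Tgfa, on the plus strand of chromosome 6 from 86195223 to 86275719, encodes transforming growth factor alpha, and its values pointed the other way. It had 14.6, 20.9 and 17.2 FPKM in Tmem173 fl/fl tumors and 9.93, 15.1 and 14.7 FPKM in Tmem173 iΔmye tumors 1, 2 and 3. The lowest value was that of Tmem173 iΔmye tumor 1, which had the most Areg, and the highest that of Tmem173 fl/fl tumor 2, which had the least. Tmem173 fl/fl tumor 1 lay just below Tmem173 iΔmye tumors 2 and 3, so the groups overlapped. The means were 17.6 ± 3.14 and 13.2 ± 2.87 FPKM (SD, n = 3 each), with a log2 fold change of -0.41 (SE 0.20, 95% interval -0.87 to 0.055, unadjusted p = 0.0764, adjusted p = 0.742 from edgeR). The log2 fold change stayed between -0.52 and -0.24 when each tumor was left out in turn.

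Among the receptors, Erbb2 and Erbb3 had lower means in Tmem173 iΔmye tumors and Egfr a similar one, and none of the differences passed the test. Erbb2, on the plus strand of chromosome 11 from 98412470 to 98437716, had 31.0, 34.3 and 34.1 FPKM in Tmem173 fl/fl tumors and 24.2, 30.1 and 27.8 FPKM in Tmem173 iΔmye tumors 1, 2 and 3. Every Tmem173 iΔmye tumor was below every Tmem173 fl/fl tumor, although the nearest values, 30.1 and 31.0 FPKM, were close. The means were 33.1 ± 1.84 and 27.4 ± 2.98 FPKM (SD, n = 3 each), with a log2 fold change of -0.28 (SE 0.13, 95% interval -0.58 to 0.024, unadjusted p = 0.0668, adjusted p = 0.742 from edgeR). Leaving out each tumor in turn gave -0.35 to -0.20. The groups stayed apart each time, which removing a tumor from groups without overlap could hardly change.

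Erbb3, on the minus strand of chromosome 10 from 128567523 to 128589652, had 48.7, 34.6 and 46.1 FPKM in Tmem173 fl/fl tumors and 28.9, 40.5 and 30.8 FPKM in Tmem173 iΔmye tumors 1, 2 and 3. The second tumor of each group crossed over to the other, so the groups overlapped. Its log2 fold change was -0.37 (SE 0.19, 95% interval -0.82 to 0.077, unadjusted p = 0.0919, adjusted p = 0.742 from edgeR). It was -0.51 (unadjusted p = 0.0231 from edgeR) without Tmem173 fl/fl tumor 2 and -0.54 (unadjusted p = 0.0361 from edgeR) without Tmem173 iΔmye tumor 2, and weaker without any of the other 4 tumors, from -0.27 (unadjusted p = 0.243 from edgeR) without Tmem173 fl/fl tumor 1 to -0.32 without the third tumor of either group. Within the tumors with Y-linked reads, and within those without, both Erbb2 and Erbb3 were lower in Tmem173 iΔmye than in Tmem173 fl/fl tumors. These sets hold only 1 or 2 tumors per group.

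Egfr, on the plus strand of chromosome 11 from 16752203 to 16918158, is the receptor of most of these ligands. It had 7.08, 8.79 and 6.52 FPKM in Tmem173 fl/fl tumors and 8.03, 7.74 and 8.23 FPKM in Tmem173 iΔmye tumors 1, 2 and 3. The 95% interval of its log2 fold change, -0.22 to 0.42 around 0.10, leaves room for a modest difference in either direction, and the estimate was 0.016 without Tmem173 fl/fl tumor 3 and 0.23 without Tmem173 fl/fl tumor 2. Nrg1, on the minus strand of chromosome 8 from 31814551 to 32884029, had 1.73, 3.47 and 2.02 FPKM in Tmem173 fl/fl tumors and 2.38, 2.41 and 2.98 FPKM in Tmem173 iΔmye tumors. Its group means of 2.41 ± 0.930 and 2.59 ± 0.340 FPKM (SD, n = 3 each) lay within the spread of the tumors, and Tmem173 fl/fl tumor 2 again held the highest value.

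Genes that overlap a member could trade reads with it, since the strand setting of the counting was not given in the sources used here. The counts on these overlapping genes were small, at 8 to 15 per tumor for Gm19610 beside Ereg, 2 to 7 for Gm43917 beside Tgfa and 11 to 38 for Egfros beside Egfr. Mien1, whose end overlaps that of Erbb2 on the opposite strand, had 184 to 470 counts, against 2001 to 2979 for Erbb2.

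The make-up of the ligand mRNA was then described as the share of each gene in the summed FPKM of the 7 ligands. Areg made up 50.8%, 29.1% and 40.1% of it in Tmem173 fl/fl tumors and 64.4%, 50.2% and 43.6% in Tmem173 iΔmye tumors 1, 2 and 3. Tgfa made up 17.8%, 28.5% and 29.5% in Tmem173 fl/fl tumors and 7.99%, 16.7% and 18.4% in Tmem173 iΔmye tumors. By FPKM, Areg was the leading ligand in every tumor, and in Tmem173 fl/fl tumor 2 it led Tgfa only narrowly. This order rests on the annotated gene lengths, 1215 bases for Areg and 6490 for Tgfa. Before division by length, Tgfa had more counts than Areg in every tumor but Tmem173 iΔmye tumor 1. In Tmem173 fl/fl tumors the counts were 1484, 2028 and 1873 for Tgfa and 790, 388 and 477 for Areg. The mean share of Areg was 40.0 ± 10.8% and 52.7 ± 10.7%, and that of Tgfa 25.3 ± 6.44% and 14.4 ± 5.60% (SD, n = 3 each), in Tmem173 fl/fl and Tmem173 iΔmye tumors. The difference in the mean share of Areg, 12.7 percentage points, was 6.89 without Tmem173 iΔmye tumor 1, 7.29 without Tmem173 fl/fl tumor 2 and 18.1 without Tmem173 fl/fl tumor 1. Both shares overlapped between the groups through Tmem173 fl/fl tumor 1.

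The shares of the other ligands overlapped between the groups. The mean share of Hbegf was 14.8 ± 2.78% and 14.7 ± 1.46%, that of Btc 9.70 ± 1.81% and 7.08 ± 2.10%, and that of Ereg 6.56 ± 5.22% and 7.97 ± 2.58% (SD, n = 3 each). Nrg1 held 3.43% and 2.78% and Epgn 0.293% and 0.412% on average. The summed ligand level was 82.0, 73.4 and 58.4 FPKM in Tmem173 fl/fl tumors and 124, 90.3 and 79.5 FPKM in Tmem173 iΔmye tumors 1, 2 and 3, with Tmem173 fl/fl tumor 1 above Tmem173 iΔmye tumor 3. Shares sum to a whole, so a larger share of Areg lowers that of the others.

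**Figure D3:**
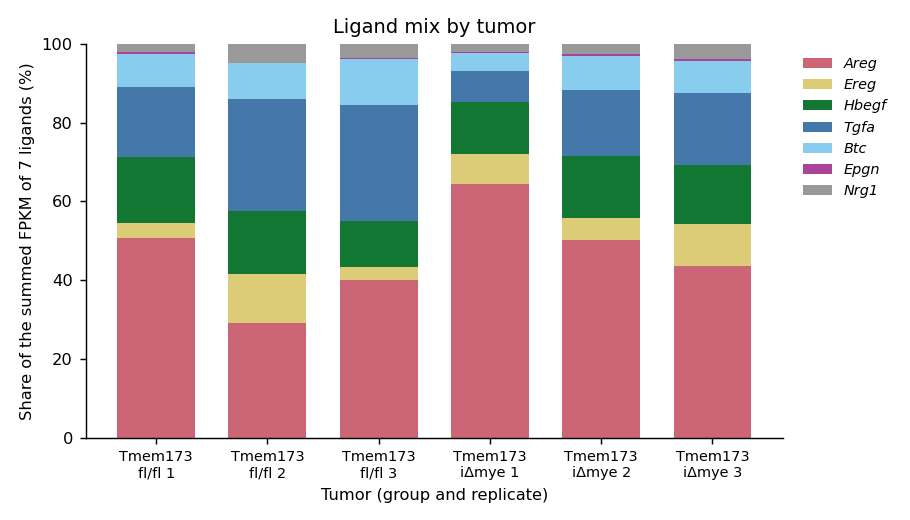
Share of each of the 7 ligand genes in their summed FPKM, in percent, with 1 bar per tumor. Areg filled 29.1% to 50.8% of the bar in Tmem173 fl/fl tumors and 43.6% to 64.4% in Tmem173 iΔmye tumors, and Tgfa filled 17.8% to 29.5% and 7.99% to 18.4%.

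Across the 6 tumors, Areg and Tgfa ran in opposite directions and Tgfa and Erbb2 in the same direction. On log2(FPKM + 1), Pearson's r was -0.95 for Areg with Tgfa (exact permutation p = 0.00694, adjusted p = 0.0833 over 36 pairs of members) and Spearman's rho was -0.83 (exact permutation p = 0.0583, adjusted p = 0.300). For Tgfa with Erbb2, r was 0.94 (exact permutation p = 0.00556, adjusted p = 0.0833) and rho was 0.83 (exact permutation p = 0.0583, adjusted p = 0.300). For Areg with Erbb2, r was -0.90 (exact permutation p = 0.0125, adjusted p = 0.113) and rho was -0.83 (exact permutation p = 0.0583, adjusted p = 0.300). Without the 2 tumors farthest from the median of the first gene, r was -0.86, 0.85 and -0.60 for these pairs. Ereg and Egfr also had high values in the same tumors, with r = 0.95 (exact permutation p = 0.00556, adjusted p = 0.0833) and rho = 0.83 (exact permutation p = 0.0583, adjusted p = 0.300), and r was 0.69 without the 2 farthest tumors.

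All these tests were two-sided, the smallest p they can give is 0.00139, and 0 of the 36 pairs passed an adjusted p of 0.05, with 6 under 0.05 before adjustment. The 3 tumors of a group are too few for a correlation within it, so these relations were not separated from the difference between the groups. Areg and Hbegf were ordered alike over the tumors (rho = 0.94, exact permutation p = 0.0167, adjusted p = 0.300), with r = 0.76 (exact permutation p = 0.0694, adjusted p = 0.313) and 0.99 without the 2 tumors with the most distant Areg levels.

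**Figure D4:**
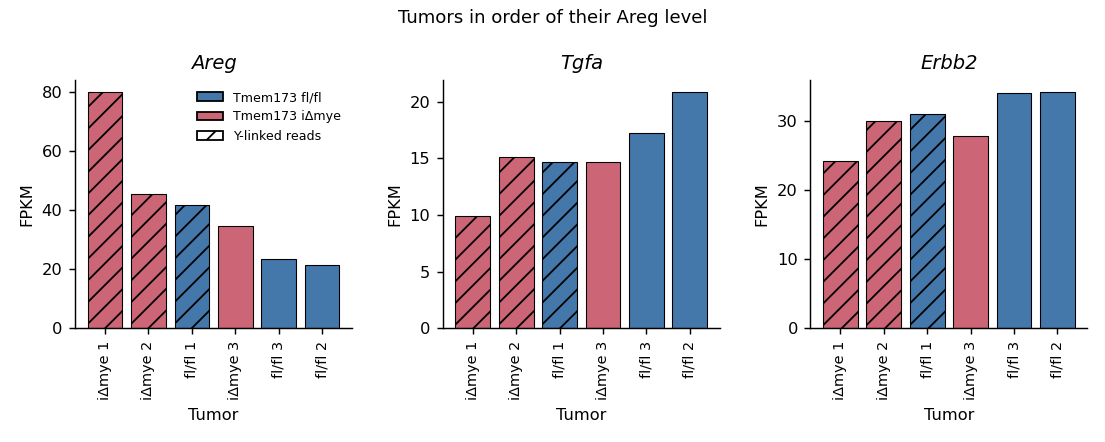
Levels of Areg, Tgfa and Erbb2 as FPKM in the 6 tumors, placed in the order of their Areg level from highest to lowest in every panel. Bars are single tumors, blue for Tmem173 fl/fl and red for Tmem173 iΔmye, and hatching marks tumors with Y-linked reads. From left to right Areg went from 80.0 to 21.3 FPKM, whereas Tgfa went from 9.93 to 20.9 and Erbb2 from 24.2 to 34.3 FPKM.

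The genes whose pattern over the 6 tumors was most like that of a member, by Pearson's r of log2(CPM + 1) among all genes tested, are given as a description. For Areg they were Tma7 (r = 0.999), Gm14539 (0.998) and Uqcc2 (0.998). For Tgfa they included Abca3 (0.997) and Arid2 (0.997), and for Erbb2 they were Ncoa2 (0.997), Dnajc6 (0.995) and Gm37303 (0.994). Ereg was nearest to Mrpl19, Dynll2 and Serp1 (0.997 to 0.987), Hbegf to Vdac1, Litaf and Arpc1b (0.996 to 0.993), and Erbb3 to Stk11ip, Gm10320 and Pip4k2c (0.988 to 0.979). Genes near Btc included Nid2 and Hist1h2bh (0.988 and 0.982). Nrg1 was nearest to Sf3a1, Wdr11 and Top1 (0.990 to 0.986) and Egfr to Fbxl19, Cln8 and Nono (0.994 to 0.987).

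Markers of the cells that could supply or receive these ligands are given for each tumor group. For scale, 49.4% of all genes tested had a log2 fold change above 0 and 6.14% had an unadjusted p of at most 0.05 from edgeR. No marker list was tested as a set. All 10 epithelial markers had a log2 fold change above 0, and their summed FPKM of 6210 to 7373 in Tmem173 fl/fl tumors overlapped that of 6894 to 8137 in Tmem173 iΔmye tumors. Within this list Vil1, a brush border protein, had a log2 fold change of 0.35 (unadjusted p = 0.0495 from edgeR). The 10 macrophage and monocyte markers summed to 371 to 592 FPKM in Tmem173 fl/fl and 369.5 to 624 FPKM in Tmem173 iΔmye tumors. All 6 neutrophil markers were above 0, with sums of 148, 40.4 and 112 FPKM against 481, 78.6 and 71.3 FPKM, and all 7 mast cell markers were above 0, with 224, 79.5 and 28.1 against 116, 48.7 and 863 FPKM.

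Of 10 fibroblast markers 9 were above 0, with sums of 274 to 329 FPKM against 306 to 406 FPKM, and Dpt (log2 fold change 1.08, unadjusted p = 0.000812 from edgeR) and Thy1 (0.69, unadjusted p = 0.0392 from edgeR) were under an unadjusted p of 0.05. Of 6 smooth muscle markers 5 were below 0, with sums of 114 to 164 FPKM against 92.7 to 151 FPKM, Des having -1.01 (unadjusted p = 0.0342 from edgeR). Of 8 T cell and innate lymphoid cell markers tested 7 were above 0. The sums of all 9 listed were 17.4 to 23.6 FPKM against 23.3 to 26.2 FPKM. Most of each sum was Il1rl1, at 9.46, 19.6 and 13.2 FPKM against 15.2, 13.9 and 20.6 FPKM, so the sums mainly followed this gene. Tmem173 fl/fl tumor 2 had the highest sum of its group and the lowest Cd3e, at 0.262 FPKM against 0.453 to 0.981 FPKM in the other tumors. All 7 squamous markers tested were below 0, Sprr1a only just (-0.039), with Krt4 at -1.15 (unadjusted p = 0.0304 from edgeR). The sums of all 10 were 65.5, 204 and 55.6 FPKM against 94.5, 78.45 and 59.9 FPKM, so Tmem173 fl/fl tumor 2 alone stood far above the rest. Krt13 had 9.81, 57.6 and 7.14 FPKM against 18.9, 16.65 and 19.2 FPKM. Of 7 markers of enteric glia and neurons, only Ret passed the filter, at 5.04 to 11.1 and 4.89 to 11.4 FPKM. It made up most of the sums, which were 6.09 to 11.9 and 5.48 to 12.3 FPKM. None of these markers passed an adjusted p of 0.05 in edgeR, and their part in the levels of the ligands and receptors was not tested. Unadjusted p was at most 0.05 for 10% of epithelial, 20% of fibroblast, 16.7% of smooth muscle and 14.3% of squamous markers tested. Each of these shares is 1 or 2 genes, and the other lists had 0%, against 6.14% of all genes.

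The rest of the pathway was followed in 69 genes, of which 63 were tested. At an unadjusted p of at most 0.05, 5 of them were higher and 0 lower in Tmem173 iΔmye tumors, which is 7.94% higher against 3.23% of all genes and 0% lower against 2.9%, and 0 passed an adjusted p of 0.05 in edgeR. Groups without overlap were found for 7 genes on the higher side (11.1% against 6.03%) and 6 on the lower side (9.52% against 6.47%). The median log2 fold change was -0.013, beside -0.0042 for all genes tested. The 5 genes were a feedback inhibitor and 4 immediate-early or MAPK target genes.

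The remaining family members were nearly silent. Egf had 0.0782 to 0.270 FPKM, Nrg4 0.340 to 0.579, Nrg2 at most 0.145 and Erbb4 at most 0.0325 FPKM, and Nrg3 had 1 count in 1 tumor. Of the genes for ligand shedding and trafficking, 9 were tested and 0 had an unadjusted p of at most 0.05. Of the 9, 4 were above 0 (44.4%, against 49.4% of all genes) and 5 below. Adam17, the main sheddase of Areg, Ereg, Hbegf and Tgfa precursors, had 10.3, 13.3 and 8.47 FPKM in Tmem173 fl/fl and 11.2, 10.8 and 11.6 FPKM in Tmem173 iΔmye tumors. Adam10, which sheds Btc, was at 55.8 to 76.3 FPKM over all tumors. The groups did not overlap for Adam9, which was higher (log2 fold change 0.17), and for Rhbdf1 (iRhom1, which brings Adam17 to the surface), which was lower (-0.26). Each was 11.1% of the genes tested in the list, against 6.03% of all genes higher and 6.47% lower.

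Among 15 adaptors and members of the RAS and MAPK cascade, 5 had a log2 fold change above 0 and 10 below, with a median of -0.058. The share above 0 was 33.3%, against 49.4% of all genes. The groups did not overlap for the adaptor Shc1 (0.15) on the higher side. On the lower side they did not overlap for Sos2, an exchange factor for RAS (-0.22), and Gab1, a docking protein that links EGFR to PI3K (-0.43). These were 6.67% of the list on the higher side and 13.3% on the lower, against 6.03% and 6.47% of all genes. In the PI3K branch 7 of 8 genes were below 0, with a median of -0.23, which left 12.5% above 0 against 49.4% of all genes. Pik3cb (-0.27) and Pdpk1 (-0.31) did not overlap and were lower (25% of the list, against 6.47% of all genes). Both lists had 0 genes at an unadjusted p of at most 0.05, and neither was tested as a set.

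Feedback inhibitors gave 5 genes above 0 (33.3%, against 49.4% of all genes) and 10 below, with a median of -0.033. Dusp6, a phosphatase that inactivates ERK and is itself induced by ERK, had 28.1, 23.1 and 19.9 FPKM in Tmem173 fl/fl and 40.1, 28.7 and 28.8 FPKM in Tmem173 iΔmye tumors 1, 2 and 3. Its groups did not overlap, and its log2 fold change was 0.45 (SE 0.19, unadjusted p = 0.0445, adjusted p = 0.742 from edgeR). Spry4 did not overlap either and was higher (0.43), and Errfi1, which encodes the EGFR inhibitor MIG6, was lower without overlap (-0.14). Genes without overlap were 13.3% of the list on the higher side and 6.67% on the lower, against 6.03% and 6.47% of all genes.

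Immediate-early and MAPK target genes were the list most often on the higher side, with 14 of 16 above 0 (87.5%, against 49.4% of all genes). Their median was 0.26, and the 14 included values near 0, such as Junb (0.0097) and Egr1 (0.059). The lists were chosen with earlier results of these data known, so the shares in this paragraph only describe them. At an unadjusted p of at most 0.05, 4 genes were higher (25%, against 3.23% of all genes). The 5 pathway genes at that limit became 1 without Tmem173 fl/fl tumor 3, 2 without Tmem173 iΔmye tumor 1 and 3 with Y-linked reads as a covariate, but 7 without Tmem173 fl/fl tumor 2. Etv5, an ETS factor induced by MAPK, had 17.1, 23.7 and 12.5 FPKM in Tmem173 fl/fl and 25.4, 45.4 and 43.1 FPKM in Tmem173 iΔmye tumors 1, 2 and 3. All 3 Tmem173 iΔmye tumors were above all 3 others, tumor 1 only slightly (log2 fold change 1.10, SE 0.29, unadjusted p = 0.00544, adjusted p = 0.742 from edgeR). Fos, an AP-1 subunit, had 41.1, 27.6 and 23.6 FPKM in Tmem173 fl/fl and 53.7, 51.9 and 36.7 FPKM in Tmem173 iΔmye tumors (0.62, SE 0.24, unadjusted p = 0.0331, adjusted p = 0.742 from edgeR). Its groups overlapped through the same pair of tumors as for Areg. Fosb, its relative, was low, at 0.248 to 0.931 FPKM in Tmem173 fl/fl and 0.827 to 1.90 FPKM in Tmem173 iΔmye tumors (1.37, SE 0.51, adjusted p = 0.742 from edgeR).

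Phlda1, the fourth gene by p-value and singled out after its values were seen, did not overlap between groups, with 58.5 to 70.5 FPKM in Tmem173 fl/fl and 74.0 to 95.1 FPKM in Tmem173 iΔmye tumors (0.37, SE 0.14). Myc did not overlap either and was higher (0.21). With Etv5 these genes made 18.8% of the list, against 6.03% of all genes without overlap on the higher side. The 2 genes of the list below 0 were Jun (-0.17) and Egr3 (-0.013), so the AP-1 subunits had values on both sides of 0. Etv5 was not highest where Areg was highest, since Tmem173 iΔmye tumor 1 had the most Areg and the least Etv5 of its group.

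**Figure D5:**
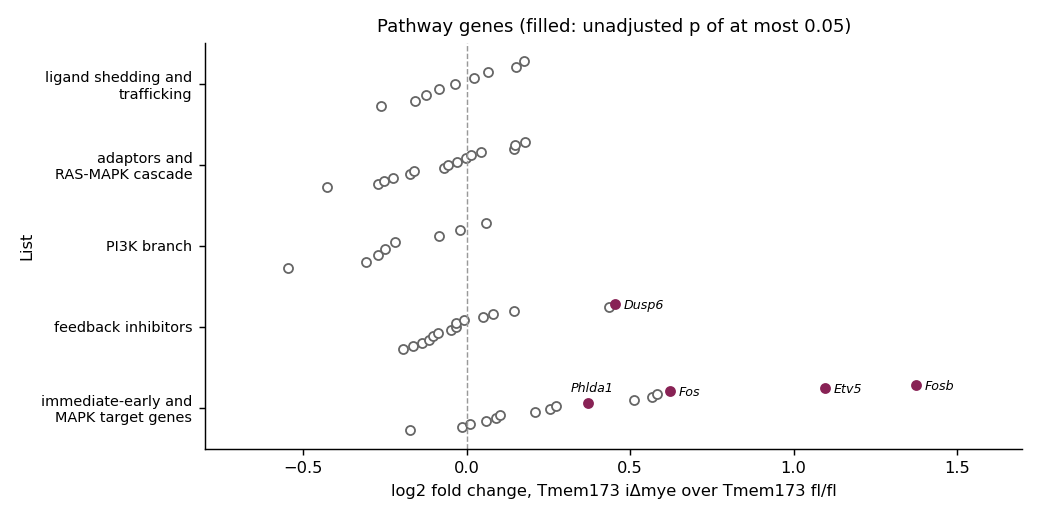
Log2 fold change, Tmem173 iΔmye over Tmem173 fl/fl, of the 63 tested pathway genes, in rows by list, as edgeR estimates from 3 tumors per group. Each point is 1 gene, filled where the unadjusted p was at most 0.05, and the height of a point within its row only spreads the genes out. The filled points are Dusp6, Phlda1, Fos, Etv5 and Fosb, all to the right of 0, and none of them passed an adjusted p of 0.05.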

How the data were processed

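PolyA RNA of 3 Tmem173 fl/fl and 3 Tmem173 iΔmye tumors (NEBNext Ultra libraries) was sequenced. Per the submitters' processing notes, CASAVA 1.8, fastp, HISAT2 2.0.5, featureCounts 1.5.0-p3 and DESeq2 1.20.0 were used with GRCm38 (mm10). For each of 54532 genes the authors deposited raw counts of reads. The authors' deposited FPKM values equal counts scaled by gene length and median-of-ratios size factors (largest relative difference 4.96e-07). A further 5 columns hold the authors' own comparison (fold change, p-values) and were not used.

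Counts of the 16426 genes with a mean of at least 0.5 FPKM were fitted with edgeR 4.0.16 (R 4.3.3), by the quasi-likelihood test with TMM scaling, the group alone as a term and Benjamini-Hochberg adjustment over all genes tested. The SE was obtained from the fitted log2 fold change and the F statistic, as the size of the first over the root of the second. Group labels came from the sample titles. Alternatives were median-of-ratios scaling, no filter, a mean of at least 1 FPKM, DESeq2 1.42.0, limma 3.58.1 on log2(FPKM + 1) and log2(FPKM + 0.1), the replicate number as a block, Y-linked reads as a covariate, and leaving out each tumor. The scripts were tested on simulated data. The members, the pathway and marker lists and the tests were chosen with earlier results of these data known.

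Genes named are all 10 members, up to 3 genes of a pathway list and 2 of a marker list with the lowest unadjusted p under 0.05, and the 3 genes most like each member. Others were named after their values were seen, because their groups did not overlap or to describe the ends of a list. Totals of 15329810 to 16533732 counts per tumor give few counts to Epgn alone among the members, and counting error is not biological spread. Promoter sequences came from RefSeq (GRCm38.p6). Protein sequences were not used here. Some genes that the naming rule reaches are not reported here.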

Additional observations from a re-analysis of the deposited data

How the results depend on the processing

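No result here passed an adjusted p of 0.05 for a member under any setting that was run. No gene passed an adjusted p of 0.05 in the edgeR comparison, and this count became 6 with no filter, 28 with DESeq2 and 0 to 1 when each tumor was left out, 1 of them without Tmem173 iΔmye tumor 1. The 349 genes past both limits became 872 with no filter, 136 with limma on log2(FPKM + 1), 211 with Y-linked reads as a covariate, and 218 to 636 when each tumor was left out. The 0 members past both limits became 0 to 1 on leaving out a tumor, with Areg without Tmem173 fl/fl tumor 1 (log2 fold change 1.25) or Tmem173 iΔmye tumor 3 (1.12) and Ereg without Tmem173 fl/fl tumor 2 (1.60). The 1 member without overlap became 1 to 5 on leaving out a tumor, against 18.7% to 31.2% of all genes with so few tumors. Erbb2 was among them each time, which its lack of overlap in all 6 tumors made nearly certain beforehand. The 5 pathway genes at an unadjusted p of at most 0.05 became 8 with no filter, 3 with Y-linked reads as a covariate and 1 to 7 on leaving out a tumor, 1 without Tmem173 fl/fl tumor 3 and 7 without Tmem173 fl/fl tumor 2. Of the log2 fold changes of members recomputed, 136 kept their direction and 3 reversed. On leaving out a tumor Nrg1 ranged from -0.075 to 0.46 and Btc from -0.15 to 0.056, with Nrg1 at -0.075 without Tmem173 fl/fl tumor 1 and at -0.0042 without Tmem173 iΔmye tumor 3, and Btc at 0.056 without Tmem173 iΔmye tumor 1. The cause of these shifts was not tested. Epgn gave no value at a mean of at least 1 FPKM.

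Same-numbered tumors deviated together with correlations of 0.31, 0.0085 and 0.15. With 3 tumors per group these values cannot settle whether the replicate numbers pair the tumors. With the replicate block, 377 genes and 0 members passed both limits, and 7 pathway genes had an unadjusted p of at most 0.05. Areg had a log2 fold change of 0.86 (unadjusted p = 0.000934, adjusted p = 0.315 from edgeR). Tgfa (unadjusted p = 0.0152, adjusted p = 0.442 from edgeR) and Hbegf (unadjusted p = 0.0413, adjusted p = 0.523 from edgeR) were also under 0.05 before adjustment, and the other members tested were not. Tmem173 fl/fl tumor 2 correlated best with Tmem173 iΔmye tumor 3 (0.22), so not every tumor correlated best with its own number. The 3 tumors per group, unequal sexes and whole tumor RNA limit what these comparisons can show.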
